A study of Danio rerio with 2 samples.

Results

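The genes described here make, receive and clear the fast inhibitory transmitters GABA and glycine and the transmitter acetylcholine. They were chosen by gene symbol alone, as the rows of the deposited count table whose symbol names a GABA-A, GABA-B, glycine, nicotinic or muscarinic receptor subunit, a member of the GABARAP family, gephyrin, or an enzyme of GABA or acetylcholine metabolism. Transporter genes were left out by that rule, which was set with earlier results of these data known. It found 43 genes among the 27095 of the table, each on a single row. Whole brains of wild-type zebrafish were pooled, 5 males for 1 sequencing library and 5 females for the other. The labels used here give no age or strain. The design asks which genes are expressed at different levels in the brains of the 2 sexes.

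Inhibition in the adult vertebrate brain runs mainly on GABA, which is made from glutamate by glutamate decarboxylase and opens chloride channels built from GABA-A receptor subunits. Glycine acts in the same way through its own receptors and is best known from hindbrain, spinal cord and retina. Acetylcholine opens nicotinic channels, including those of the nerve-muscle synapse, and acts more slowly through muscarinic receptors coupled to G proteins. The common ancestor of teleost fish duplicated its genome, and many of these genes are therefore present as an a copy and a b copy.

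The estimated counts summed to 62248792 reads for males and 64300988 for females. The 43 genes took 0.442% of the male and 0.439% of the female reads, 274989 and 282020 reads. Levels are given as CPM, the scaled count per 1000000 reads of a library, and a gene with a mean of at least 1 CPM is called measured. Each ratio is a log2 value of the male over the female level. Negative ratios thus mean a higher level in the female library, and reads are given male before female. Brackets after a ratio hold its 95% interval, which covers counting error only. Since each sex has 1 library, the spread between replicates is unknown, no test was possible, and none of the differences has a replicate check. Fewer cells of a type and less RNA per cell cannot be told apart in whole-brain libraries. Transcript lengths were not used here, so a level or a share of a family's reads is compared between libraries only and does not rank genes.

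GABA, glycine and acetylcholine transmission genes were close to level between the male and the female library. Of the 43 genes, 34 were measured, 3 had reads but lay under 1 CPM, and 6 were listed at 0 in both libraries. The median log2 ratio of the 34 was 0.02, with quartiles of -0.11 and 0.19, and it turned negative when scaled by library totals. Over all 14756 measured genes the median was -0.00, with quartiles of -0.15 and 0.12. That median is near 0 because the scaling centres the genes with reads in both libraries. Level thus means level with the typical gene. A gene was called where it differed 2-fold or more and its interval excluded 0. So 2 genes, glra4b and chrna10, were higher in the male library, against a background of 1.06% of all measured genes. None was higher in the female library, where the background was 2.7%. With a trend of the ratio on expression level removed, the background split changed from 156 male and 399 female genes to 203 and 328.

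**Figure D1:**
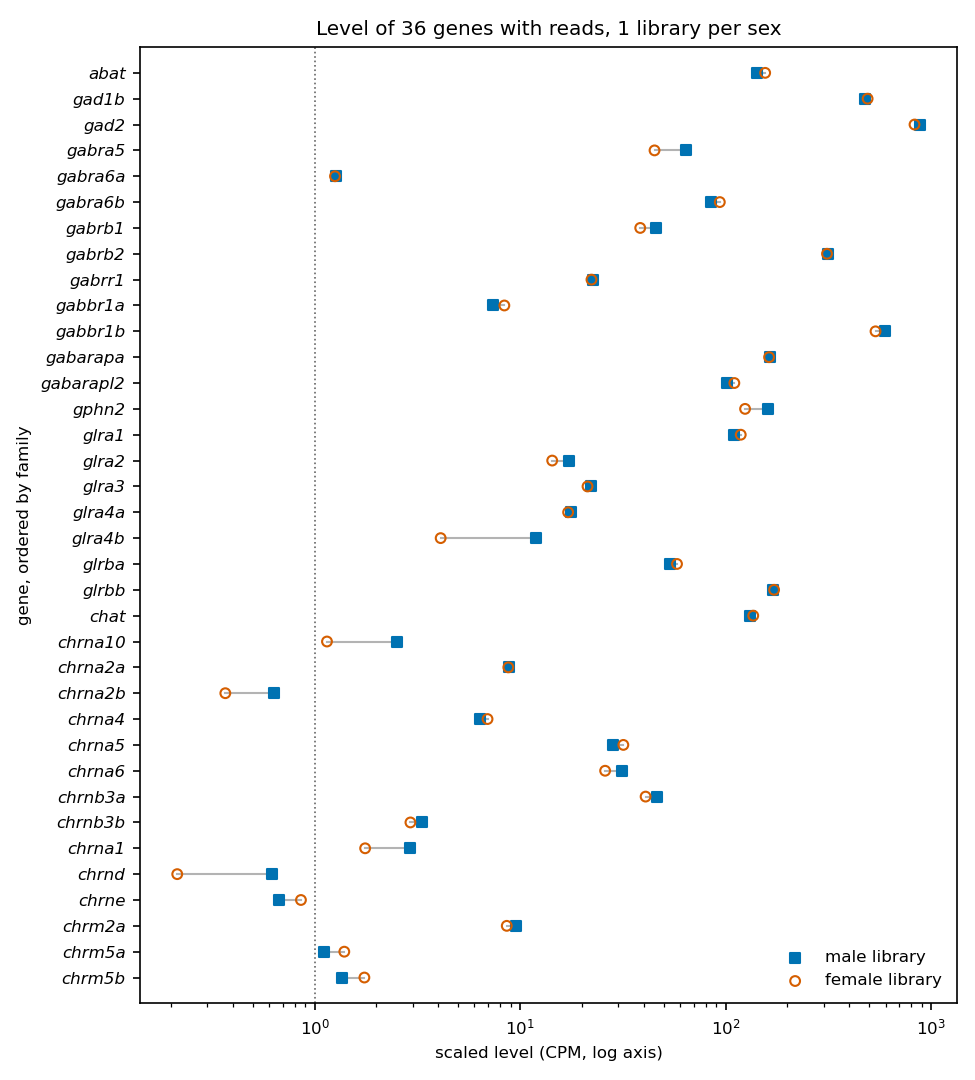
Scaled level in CPM on a log axis for 36 of the 37 genes with reads, with a square for the male and an open circle for the female library, and a dotted line at 1 CPM. Most pairs of symbols touch or overlap, and the widest gaps are those of glra4b, at 12.0 against 4.11 CPM, and chrnd, at 0.619 against 0.215 CPM.

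At a fold of at least 1.5 the muscle nicotinic subunit gene chrna1 joined on the male side, so 3 of 34 were called against 2.8% of all measured genes. The female side had none at that fold, against 6.09%. At a fold of at least 5/4, gabra5 and gphn2 made it 5 of 34 on the male side, against 7.18%, and the female side again had none, against 12.5%. Intervals lay wholly above 0 for 12 and wholly below 0 for 8 of the 34, against 31.5% and 30.8% of all measured genes. The other 14 intervals held 0. Without regard to sign the median log2 ratio was 0.14, and 0.13 for all measured genes, and 30 of 34 genes (88.2%) lay within 0.5 of 0, against 88.9%. In spread, too, these genes were near the background.

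**Figure D2:**
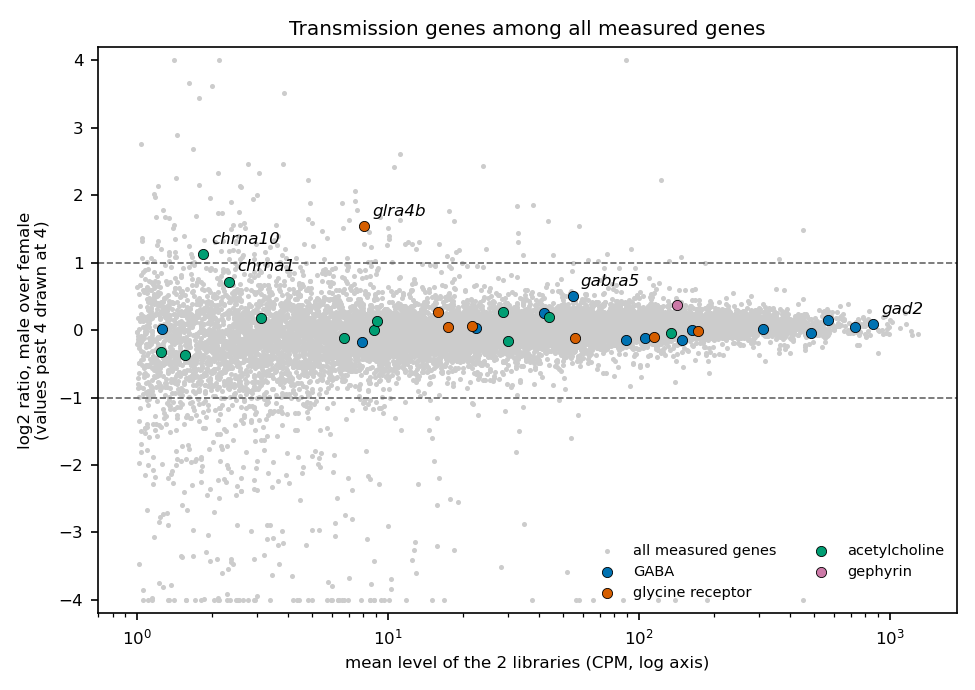
Log2 ratio of male over female against the mean level of the 2 libraries in CPM on a log axis, for all 14756 measured genes in grey and the 34 measured transmission genes in colour, with dashed lines at 2-fold. Most coloured points lie along the centre of the grey cloud. Those of glra4b and chrna10 lie above the upper dashed line, and chrna1 (0.72) and gabra5 (0.50) lie between that line and the centre.

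The 3 genes that the table names as enzymes making or breaking down GABA all lay within 0.25 of 0. A further decarboxylase copy with a provisional symbol, gad1a, had a ratio of 0.37 and is described with its copy. The glutamate decarboxylase gene gad2, on the minus strand of chromosome 24 from 6216524 to 6242312 in the Zv9 genome build, is the defining marker of GABA neurons and stood at 54111 against 54189 reads. Scaled for library size that was 882 against 830.5 CPM, a log2 ratio of 0.09 (0.07 to 0.10). The second decarboxylase gene, gad1b on chromosome 6, stood at 29374 against 32040 reads, a ratio of -0.04 (-0.06 to -0.01). The GABA transaminase gene abat, whose enzyme degrades GABA, had 8685 against 10167 reads and a ratio of -0.14 (-0.18 to -0.10). It was among the 3 genes whose intervals lay farthest below 0, yet its fold was only 1.1 (1.07 to 1.13). As a share of the reads of these 3 enzyme genes, gad2 held 58.7% in the male library (exact interval 58.4% to 59.0%) and 56.2% in the female library (55.9% to 56.5%).

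Subunits of the GABA-A receptor spanned a somewhat wider range. The alpha 5 gene gabra5, known from the hippocampus in mammals, leaned furthest to the male library. It stood at 3916 against 2943 reads, or 63.8 against 45.1 CPM, a ratio of 0.50 (0.43 to 0.57) and a fold of 1.42 (1.35 to 1.49). The 4 alpha genes had a median ratio of 0.03, negative when scaled by library totals.

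The alpha 6 copies, a subunit of cerebellar granule cells in mammals, gave no male excess. The copy gabra6b stood at 5203 against 6116 reads, a ratio of -0.14 (-0.20 to -0.09), and gabra6a at 78 against 82 reads, a ratio of 0.02 whose interval of -0.45 to 0.48 is too wide to show a direction. Of the beta genes, gabrb2 was level at 19354 against 20326 reads (0.02, -0.01 to 0.05). The other beta gene, gabrb1, had 2808 against 2507 reads and a ratio of 0.25 (0.17 to 0.33). The rho gene gabrr1, whose subunit forms slowly closing channels best known from retina, had 1394 against 1452 reads and a ratio of 0.03 (-0.08 to 0.14). Signs of gabra6a and gabrr1 turned with library totals, and that of gabrb2 turned with library totals or either trend removed.

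The genes that the table names as GABA-B receptor or GABARAP family members all lay within 0.25 of 0. The GABA-B1 subunit binds GABA, and its copy gabbr1b had 36412 against 35003 reads and a ratio of 0.15 (0.12 to 0.17). The other copy, gabbr1a, had 454 against 547 reads and a ratio of -0.18 (-0.36 to 0.00). The GABARAP proteins bind GABA-A receptors and also belong to the autophagy machinery. Their genes stood at 10057 against 10621 reads for gabarapa, a ratio of 0.01 (-0.03 to 0.05), and 6246 against 7200 for gabarapl2, a ratio of -0.12 (-0.17 to -0.07). The sign of gabarapa turned with library totals or the expression trend removed. Gephyrin, the scaffold that anchors glycine and GABA-A receptors at synapses, leaned further to the male library. Its gene gphn2, now gphnb, had 9870 against 8117 reads, or 161 against 124 CPM, a ratio of 0.37 (0.33 to 0.41) and a fold of 1.29 (1.26 to 1.33).

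Against 1.06% of all measured genes, 1 of 7 glycine receptor genes was higher in the male library by the 2-fold rule, glra4b. This copy of the alpha 4 subunit gene lies on the minus strand of chromosome 5 from 24298680 to 24327466 (Zv9). It stood at 736 against 268 reads, or 12.0 against 4.11 CPM, a log2 ratio of 1.54 (1.34 to 1.75) and a fold of 2.92 (2.54 to 3.37). Of the reads of all 5 alpha genes, glra4b took 6.68% (6.22% to 7.17%) in the male library and 2.34% (2.07% to 2.64%) in the female library. Its closest neighbours in the table had ratios near 0, with the ribosomal protein gene rpl36a at -0.01 (-0.06 to 0.04) and aifm1, listed as pdcd8, at 0.10 (0.04 to 0.15). No other row of the table overlaps glra4b.

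The other glycine receptor genes lay within 0.3 of 0. The alpha 1 gene glra1 had 6773 against 7734 reads, a ratio of -0.10 (-0.15 to -0.06). The alpha 2 gene glra2, a subunit typical of immature neurons in mammals, had 1061 against 935 reads, a ratio of 0.27 (0.14 to 0.40). The alpha 3 gene glra3 had 1359 against 1389 reads (0.06, -0.05 to 0.17), with a sign that turned when the span trend was removed. Level values also came from glra4a, the second copy of the alpha 4 gene, at 1084 against 1118 reads (0.04, -0.08 to 0.17). The beta subunits, which bind gephyrin, had 3280 against 3786 reads for glrba (-0.12, -0.19 to -0.05) and 10469 against 11234 for glrbb (-0.01, -0.05 to 0.03). On the opposite strand glrbb overlaps the row LOC100535535, listed at 0.

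Photoreceptor and telencephalic genes were higher in the same library as glra4b and gabra5. The marker and gene lists here and below were chosen with earlier results of these data known, so their shares beside all genes are descriptive. All 10 measured photoreceptor markers lay above 0, from 0.12 to 2.90, and 6 passed 2-fold. Of these 6, opn1lw1, opn1lw2 and crx were under 1 CPM in the female library and counted as measured only through the male library. The markers gnat2 (0.26), rcvrna (0.17) and sagb (0.12), above 1 CPM in both libraries, stayed under 1.5-fold. Over all measured genes, 7339 of 14756 lay above 0 and 1.06% passed 2-fold on the male side. The whole photoreceptor list, genes under 1 CPM included, summed to 170.4 against 90.99 CPM, with pde6a and pde6b listed at 0. All 9 telencephalic markers lay above 0 and 5 passed 2-fold, with a summed level of 532 against 318 CPM and none at 0. Of these 5, emx3 was under 1 CPM in the female library and counted as measured only through the male library. The part of photoreceptor and telencephalic RNA in the values of glra4b and gabra5 was not tested. The 5 measured markers of spinal cord and hindbrain, where glycine transmission is prominent, had a median of -0.06, positive with the expression trend removed. Of these, 2 lay above and 3 below 0, and hoxb5a passed 1.5-fold on the male side, at 0.63 (0.50 to 0.77). The list summed to 193.2 against 199.6 CPM, most of it from mafba at 158.5 against 171.8 CPM, with hoxc6a listed at 0.

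**Figure D3:**
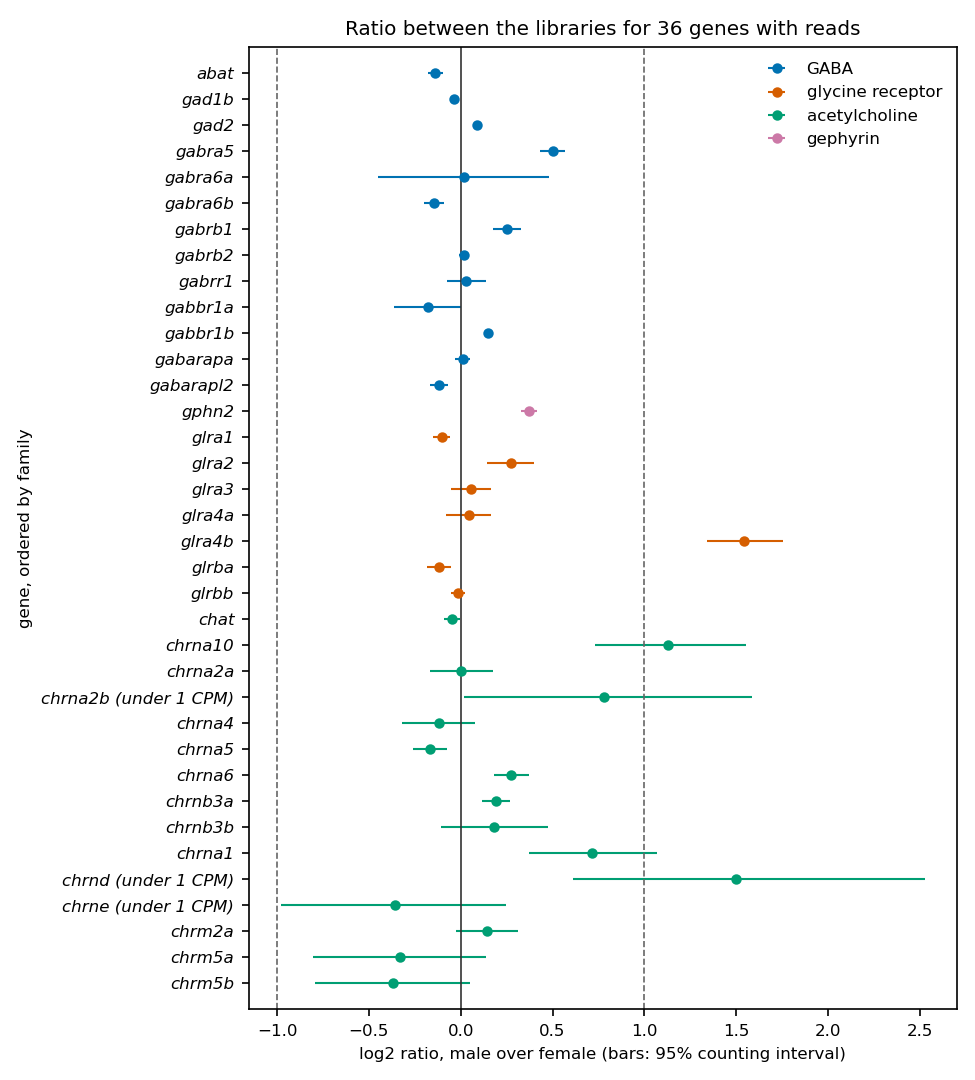
Log2 ratio of male over female for 36 of the 37 genes with reads, ordered by family, with bars for the 95% counting interval and dashed lines at 2-fold. Intervals of the abundant genes are narrower than the symbols, and those of chrnd, chrne and chrna2b, all under 1 CPM, are the widest.

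Acetylcholine genes held the other male-side call at 2-fold, 1 of 12 measured genes against 1.06% of all measured genes. The synthesis enzyme gene chat, now chata, stood at 8094 against 8893 reads, a ratio of -0.05 (-0.09 to -0.00). The gene of acetylcholinesterase, ache, was listed at 0 in both libraries. The nicotinic gene chrna10, now chrna10a, encodes a subunit known from hair cells of the inner ear in mammals. It lies on the minus strand of chromosome 15 from 36878450 to 36884948 (Zv9) and had 155 against 75 reads, or 2.53 against 1.15 CPM. Its ratio was 1.13 (0.73 to 1.55) and its fold 2.19, with an interval of 1.66 to 2.94 that reaches below 2. The usual partner of this subunit in mammals is alpha 9, and its zebrafish gene chrna9a, listed as LOC568807, was at 0 in both libraries.

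None of the other measured nicotinic subunits of brain neurons passed 1.5-fold, against 2.8% of all measured genes on the male and 6.09% on the female side. The ratios of these subunits went both ways. The alpha 6 and beta 3 subunits occur together in channels of dopamine neurons in mammals, and their genes chrna6 and chrnb3a are neighbours on chromosome 1. They had 1925 against 1692 reads (0.28, 0.18 to 0.37) and 2858 against 2663 reads (0.19, 0.11 to 0.27). The alpha 5 gene chrna5, an accessory subunit of the habenula pathway, leaned the other way with 1738 against 2075 reads (-0.17, -0.26 to -0.07). Its neuronal fellow chrna2a had 539 against 572 reads, a ratio of 0.00 (-0.17 to 0.18) with no stable sign. The alpha 4 gene chrna4, now chrna4b, had 392 against 453 reads (-0.12, -0.32 to 0.08), and the beta 3 copy chrnb3b had 204 against 191 (0.18, -0.11 to 0.48). Neither interval excluded 0. The second alpha 2 copy, chrna2b, lay under 1 CPM with 39 against 24 reads (0.78, 0.02 to 1.59), and chrna7 was listed at 0.

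Subunits of the muscle receptor had few reads, and the only ratio below 0 had an interval that held 0. The alpha 1 gene chrna1, which binds acetylcholine at the nerve-muscle synapse, had 178 against 115 reads, or 2.90 against 1.76 CPM, a ratio of 0.72 (0.37 to 1.07) and a fold of 1.64 (1.30 to 2.10). Under 1 CPM, the delta gene chrnd had 38 against 14 reads (1.5, 0.61 to 2.53) and the epsilon gene chrne 41 against 56 (-0.36, -0.98 to 0.25). The beta gene chrnb1 was listed at 0. While the chrne interval showed no direction, most skeletal muscle markers leaned the way of chrna1 and chrnd, with 11 of 13 measured genes above 0. Their median was 0.24, and over all measured genes 7339 of 14756 lay above 0. The markers ckma (0.03) and ckmb (0.07) were near level, and myhz2 was at -0.32 (-0.46 to -0.18). On the male side 2 of the 13 passed 2-fold (acta1b and atp2a1), against 1.06% of all measured genes. The whole list, genes under 1 CPM included, summed to 613 against 502 CPM, with tnnt3b, tnni2b.1 and casq1b listed at 0. The part of muscle RNA in the chrna1 and chrnd values was not tested.

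The intervals of the 3 measured muscarinic receptor genes all held 0. The inhibitory M2 receptor gene chrm2a had 583 against 562 reads, a ratio of 0.14 (-0.03 to 0.31). Both M5 copies were low in reads, with chrm5a at 68 against 91 (-0.33, -0.81 to 0.14) and chrm5b at 83 against 114 (-0.37, -0.80 to 0.05). A difference of the size of these ratios was not detectable at this depth. The M3 and M4 genes chrm3a and chrm4a were listed at 0.

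The 6 genes listed at 0 in both libraries, ache, chrm3a, chrm4a, chrna7, chrnb1 and gabrg3, cannot be read as absent. Over all genes 10315 (38.1%) were at 0 in both libraries and 179 in 1 library alone. Genes that every cell uses were among the zeros, with 8 of 67 ribosomal protein genes, such as rps12 and rpl13, and 3 of 40 proteasome genes. No limit on expression was therefore drawn from these zeros.

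Another 31 genes of the same families carry provisional symbols in the table and receive a fitting name only from the current RefSeq gene table of assembly GRCz12tu. Of these, 14 were measured, 1 lay under 1 CPM and 16 were listed at 0. None of the 14 passed 1.5-fold, against 2.8% of all measured genes on the male and 6.09% on the female side. The median ratio of the 14 was 0.19, and they ranged from -0.15 to 0.49 with 11 above 0 and 3 below. Over all measured genes, 7339 of 14756 lay above 0. The GABA-A delta gene gabrd, whose subunit sits outside the synapse in mammals, had 31429 against 34609 reads (-0.05, -0.07 to -0.03). The GABA-B2 gene gabbr2, the signalling partner of GABA-B1, had 13721 against 11578 reads (0.33, 0.30 to 0.37). The zebrafish subunit genes gabrz and gabrb4 stood at 14951 against 13266 reads (0.26, 0.23 to 0.30) and 12686 against 11690 reads (0.21, 0.17 to 0.24). The gene gabra4 sums rows at separate places on chromosome 14 and had 6213 against 7308 reads (-0.15, -0.20 to -0.10). The muscarinic gene chrm4b was measured, at 2996 against 2789 reads (0.19, 0.12 to 0.27), while chrm1a, chrm1b, chrm2b and chrm3b were listed at 0. With these genes included, 2 of 48 measured genes passed 2-fold on the male side, against 1.06% of all measured genes. The female side had 0, against 2.7%. The median over the 48 was 0.06.

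Copies of the same gene could be compared within the libraries, where the scaling cancels. In 11 pairs both copies had reads, and in 7 the difference of their log2 ratios had a counting interval that excluded 0. At this depth the intervals of single genes excluded 0 for 31.5% of all measured genes on the male and 30.8% on the female side. No such share was computed for other pairs of genes, so the count of pairs was not read as a result about copies. The widest difference belonged to the alpha 4 glycine receptor, with glra4b above glra4a by 1.5 (1.27 to 1.74). For the decarboxylase, gad1a (7497 against 6188 reads, ratio 0.37) lay above gad1b by 0.40 (0.35 to 0.46), so the copies had opposite signs. The gephyrin copy gphnb lay above gphna (6291 against 6248 reads) by 0.27 (0.21 to 0.34), and gabbr1b lay above gabbr1a by 0.33 (0.15 to 0.51). The rho copy gabrr2b (237 against 180 reads) lay above gabrr2a (499 against 541) by 0.51 (0.18 to 0.84). On the opposite strand gabrr2a overlaps the row LOC100536669, which had 185 against 144 reads. The remaining pairs with an interval off 0 were glrbb over glrba, by 0.10 (0.03 to 0.18), and chrna2b over chrna2a, by 0.79 (0.03 to 1.54). For chrm5, chrnb3, gabra2 and gabra6 the interval held 0. Reads of similar copies can be shared by the counting, so the split within a pair is uncertain.

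**Figure D4:**
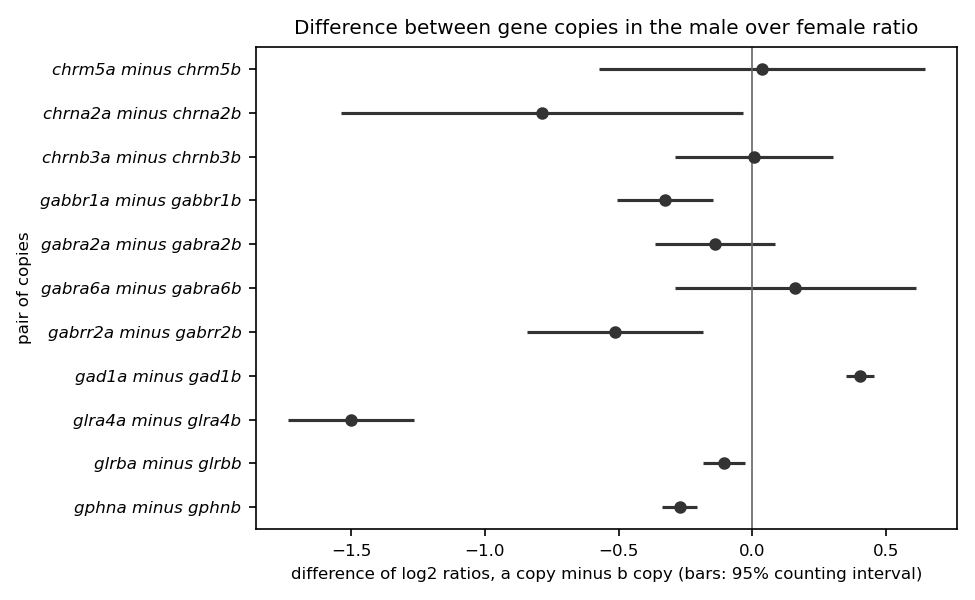
Difference between the a copy and the b copy in the log2 ratio of male over female, for the 11 pairs with reads in both copies, with bars for the 95% counting interval. The pair glra4a and glra4b lies farthest from 0, at -1.5, and gad1a and gad1b is the 1 pair whose interval lies wholly above 0.

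Several of the receptor genes lie within 200 kb of one another, as their relatives do in other vertebrates. The neighbours gabra2a, gabrg1 and gabrb1 on chromosome 13 had ratios of 0.07, 0.07 and 0.25, and chrnb3a and chrna6 on chromosome 1 had 0.19 and 0.28. On chromosome 20 gabrr1 and gabrr2b differed more, at 0.03 (-0.08 to 0.14) and 0.49 (0.20 to 0.77). The chromosome 14 genes gabra4 and gabra2b had opposite signs, at -0.15 (-0.20 to -0.10) and 0.20 (0.09 to 0.32). The gabra4 reads are summed over separate places on chromosome 14, so its ratio is not only that of the place near gabra2b. Elsewhere on that chromosome gabra6a and gabrb2 both stood at 0.02. The gene chat lies 1227 bases from slc18a3a, the vesicular acetylcholine transporter gene with which it forms the cholinergic locus. Their ratios were -0.05 and -0.26 (-0.36 to -0.15), the latter from 1247 against 1584 reads.

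No measured carrier or assembly gene of these pathways passed 1.5-fold, against backgrounds of 2.8% on the male and 6.09% on the female side. Of the 6 measured GABA and glycine carriers 2 lay above and 4 below 0, and their median was -0.09. The vesicular carrier gene slc32a1, which loads GABA and glycine into vesicles, had 19840 against 20522 reads (0.04, 0.01 to 0.07), and the glycine carrier gene slc6a9 had 326 against 503 (-0.54, -0.74 to -0.33). The neuronal glycine carrier gene slc6a5, which marks glycine neurons, was listed at 0, so these neurons could not be checked by their marker. The 3 measured cholinergic carriers and the 9 measured genes of receptor assembly and anchoring had medians of 0.03, negative with library totals, and 0.10, which became -0.00 with the span trend removed. In the latter list the gene nlgn2b, listed as nlgn2a, which encodes the neuroligin 2 adhesion protein of inhibitory synapses, stood at 0.27 (0.24 to 0.31).

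Several transcription factors of GABA neurons were higher in the male library at the lower fold limit. Of 15 measured factors 6 passed 1.5-fold on the male side and none on the female side, against backgrounds of 2.8% and 6.09%, and their median was 0.42. They were lhx6 (1.30), sp8a (0.89), dlx2b (0.85), dlx2a (0.69), dlx1a (0.66) and arxa (0.63), factors of GABA neurons born in the ventral forebrain. Of the 15 only lhx6 passed 2-fold, against 1.06% of all measured genes on the male side. Under 1.5-fold were dlx5a (0.46), dlx6a (0.42) and sp9 (0.36). Factors of midbrain and hindbrain GABA neurons lay lower, with gata2a at 0.20 (0.11 to 0.29) and gata3 at 0.06 (0.01 to 0.10). In the same group tal1 was at 0.01 (-0.05 to 0.07) and tal2 at -0.03 (-0.09 to 0.03). The cerebellar and hindbrain factors ptf1a and pax2a were at -0.43 (-0.81 to -0.05) and -0.37 (-0.43 to -0.31). The telencephalic markers given above leaned to the male library as well, and their part in the values of the forebrain factors was not tested. Beside these lists gad2 stood at 0.09, gad1b at -0.04 and gad1a, which has a provisional symbol, at 0.37.

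Factors of cholinergic neurons went both ways. The basal forebrain factor lhx8a had 332 against 153 reads (1.20, 0.93 to 1.49). It passed 2-fold on the male side, 1 of 6 measured factors against 1.06% of all measured genes. Factors of motor neurons were split, with phox2a at 390 against 589 reads (-0.51, -0.69 to -0.32), phox2bb at 319 against 428 (-0.34, -0.55 to -0.12) and isl1 at 1559 against 1809 (-0.13, -0.23 to -0.03), but isl2a at 431 against 354 (0.37, 0.17 to 0.58). Under 1 CPM, the listed factor tbx20 had 9 against 39 reads (-1.97, -3.26 to -0.96), and isl2b and mnx1 were listed at 0. The median of the 6 measured factors was 0.07, with 3 above and 3 below 0. The gene chat stood at -0.05 beside them. Of other cell types, all 7 radial glia markers (median -0.30), 7 of 8 leukocyte markers (-0.46) and all 6 erythrocyte markers (-0.58) lay below 0. All 7 measured germ cell and liver markers were higher in the female library past 2-fold, against 2.7% of all measured genes. Of these, vtg2, zp3a.1, zp2.2 and zar1 were under 1 CPM in the male library and counted as measured only through the female library. The whole germ cell and liver list of 8 summed to 17.0 against 1437 CPM. Most of the female sum came from vtg1 at 899 CPM and vtg2 at 374 CPM. The part of germ cell and liver RNA in the female-side values of the transmission genes was not tested.

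**Figure D5:**
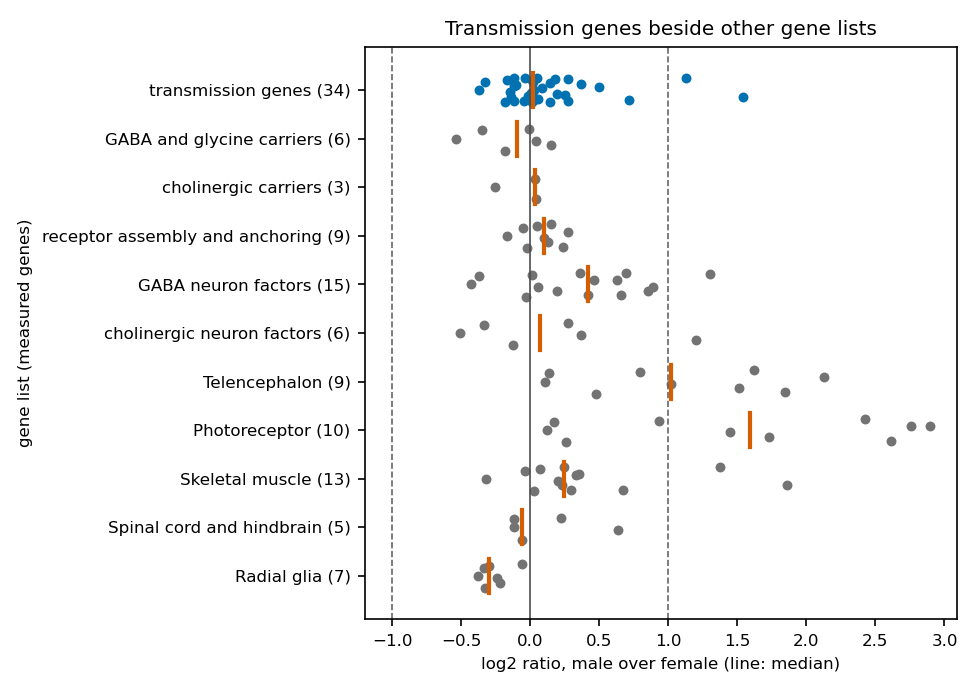
Log2 ratio of male over female for the 34 measured transmission genes in blue and for the measured genes of 10 other lists in grey, with a line at each median and dashed lines at 2-fold. The transmission genes have a median of 0.02, the GABA neuron factors one of 0.42 and the telencephalic markers one of 1.02.

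Receptor genes for glutamate, the main excitatory transmitter, were counted for comparison. Of 21 such genes, found by the table's symbols only, 20 were measured, 18 of them above 0, with a median of 0.17. None passed 1.5-fold, against 2.8% of all measured genes on the male and 6.09% on the female side. The transmission genes, which include enzymes and GABARAP genes as well as receptors, had 21 of 34 above 0 and a median of 0.02. With their provisional-symbol genes added, 32 of 48 lay above 0 and the median was 0.06. No such genes were added to the glutamate set. Over all measured genes 7339 of 14756 lay above 0. The sets also differ in level, not corrected for length, with a median of 222 CPM for the glutamate receptor genes and 36.1 CPM for the 34. The difference in ratio between the sets was not tested.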

How the data were processed

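Per the labels' protocols, total RNA from 5 pooled brains per sex was sequenced as single reads of 51 bp. The genome build Zv9, DESeq and TopHat 1.4.1 are named without roles, per the submitters' processing notes. No source used here states the counter, the annotation or any use of strand. The deposited raw columns hold estimated counts (1.56% of male and 1.92% of female values above 0 are whole within 0.001), and the deposited normalized columns are log2 values of those counts divided by 0.971 and 1.03. Estimated counts were summed by Entrez ID (296 genes with 624 rows), rounded, and scaled by median-of-ratios size factors (male 0.970, female 1.03). Ratios were taken after adding 0.5 to each count. Intervals are exact Clopper-Pearson 95% intervals of the male share, and those between copies use a normal approximation. They treat estimated counts as whole reads, and without molecular identifiers they cover counting error only. The calculation was tested on simulated data.

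Members, gene lists and call rules were chosen with earlier results of these data known, and the comparison of copies was added after their values were seen. Named are all enzyme, gephyrin, GABA-B and glycine receptor genes, the 4 genes with the highest mean CPM in each other family (a rule for naming, not corrected for length), all past 1.5-fold, and the 3 intervals farthest from 0 on each side. Others were added to show the values of members with reads. A few genes are not reported here. List members were matched by current symbol, then by the table's symbol. Current symbols came from RefSeq (GRCz12tu) for 22112 of 27095 genes (81.6%), and all coordinates are those of the deposited table. Alternatives were library totals, TMM factors from edgeR, the deposited normalized columns, removal of a lowess trend (fraction 0.3) on expression or genomic span, 5 added to each count, unsummed rows, other minimum levels and folds, and membership by current symbol. The tools were edgeR 4.0.16 in R 4.3.3, and scipy 1.17.1, numpy 2.4.6, statsmodels 0.14.6, pandas 2.3.3 and matplotlib 3.10.9 in Python 3.11.15.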

Additional observations from a re-analysis of the deposited data

How the results depend on the processing

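The number of genes past 2-fold was 2 on the male side and 0 on the female side under TMM factors, library totals, the deposited normalized columns, either trend removed, 5 added to each count, unsummed rows, membership by current symbol and a minimum of 0.5 CPM. Over all genes, library totals gave 143 on the male and 428 on the female side, and the expression trend removed gave 203 and 328. The other scalings and count settings lay between these. Membership by current symbol leaves the background at 1.06% and 2.7%, and none stands beside the minimum of 0.5 CPM. A minimum of 5 CPM left 1, glra4b, since chrna10 lies under that level. At that minimum 59 of all 12182 genes passed 2-fold on the male and 112 on the female side. Without a minimum there were 3, with chrnd added, and no background stands beside that count. At a fold of at least 5/4 the male side had 5 (background 7.18%), glra4b, chrna10, chrna1, gabra5 and gphn2, and the female side 0 (12.5%). The log2 ratio of glra4b ranged from 1.5 to 1.65 and that of chrna10 from 1.09 to 1.32 over 7 alternatives. Of the 37 genes with reads, 7 changed sign in at least 1 of them, all with main ratios within 0.25 of 0. The median over the measured genes ranged from -0.02 with library totals to 0.06 by current symbol, and the mean was 0.12. No scaling moved the median of all genes by over 0.1, with library totals giving -0.04. Levels per kilobase of coding length were not run, since no coding lengths were used here. No paired analysis was possible because each group has 1 library. With 1 library per sex, no replicate could be left out.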
